A study of Rattus norvegicus with 8 samples.

Results

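Ankrd1, Ankrd2, Csrp3, Xirp1 and Xirp2 are muscle genes whose transcripts respond to stretch and load. They were looked up by symbol in a table of raw read counts from rat diaphragm, the main muscle of inspiration. Of the 5 listed genes, 4 had a row among the 17055 rows and were tested with 10522 genes in all. Xirp1 is not analysed here. The animals were 8 Sprague-Dawley rats sampled 16 weeks after surgery, each giving 1 library. In 4 of them, replicates 1 to 4, a myocardial infarction (MI) was made by tying off the left anterior descending coronary artery. The 4 Sham rats, replicates 5 to 8, had the same operation without the tie. Both groups were therefore anaesthetised with isoflurane, intubated, mechanically ventilated and opened at the left chest wall, and their pericardium was removed.

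Skeletal muscle senses load partly at the Z-disc, where thin filaments and titin are anchored, and at the spring-like I-band part of titin. Ankrd1, also called CARP, and Ankrd2, also called Arpp, are ankyrin repeat proteins that bind the N2A element of titin and can move to the nucleus. Csrp3, the muscle LIM protein, is a LIM domain protein of the Z-disc and the cytoskeleton under the membrane. Xirp1 and Xirp2 carry Xin repeats that bind actin filaments, and lie at sites where myofibrils meet the membrane. In rodent limb muscle and heart, levels of these transcripts are known to rise with stretch, overload or injury.

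Promoter sequences are shown for Xirp2 and for Ankrd23, the third titin-binding ankyrin repeat gene, because their levels followed each other across the animals. The genes Specc1 and Htatsf1 followed Xirp2 more closely, and shared control of Xirp2 and Ankrd23 was not tested. Ankrd2 is shown as the only other member with a promoter entry, Ankrd1 and Csrp3 having none. Each is the stretch of 250 bases before the annotated start of the gene, from RefSeq on the GRCr8 build. Capitals mark matches to 4 motifs searched on both strands. These were the MEF2 motif, the MCAT motif CATTCC that TEAD factors bind, the E-box CANNTG of myogenic factors and the TATA box TATAAA.
Xirp2, chr3:72533936-72534185, plus strand: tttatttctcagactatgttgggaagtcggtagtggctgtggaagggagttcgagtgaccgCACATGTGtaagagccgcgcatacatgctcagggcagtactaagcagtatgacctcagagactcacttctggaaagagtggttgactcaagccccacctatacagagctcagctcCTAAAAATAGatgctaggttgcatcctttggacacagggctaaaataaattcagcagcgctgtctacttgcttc
Ankrd23, chr9:46274511-46274760, minus strand: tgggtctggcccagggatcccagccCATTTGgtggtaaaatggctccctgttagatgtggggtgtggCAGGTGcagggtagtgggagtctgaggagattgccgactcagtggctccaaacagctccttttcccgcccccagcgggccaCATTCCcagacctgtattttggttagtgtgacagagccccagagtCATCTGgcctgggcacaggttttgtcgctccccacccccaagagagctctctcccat
Ankrd2, chr1:250796169-250796418, plus strand: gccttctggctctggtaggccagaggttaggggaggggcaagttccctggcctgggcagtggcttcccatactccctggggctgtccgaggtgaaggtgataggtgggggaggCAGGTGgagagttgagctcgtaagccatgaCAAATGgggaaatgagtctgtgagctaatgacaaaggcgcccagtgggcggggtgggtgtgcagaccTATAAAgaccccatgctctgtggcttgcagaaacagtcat

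The Xirp2 stretch held 1 match to the MEF2 motif, CTAAAAATAG, ending 65 bases before the start, and 2 overlapping E-boxes. The Ankrd23 stretch held 1 MCAT match and 3 E-boxes. The Ankrd2 stretch held 1 TATA box, 35 bases before the start at its near end, and 2 E-boxes. Of 27457 promoters of the same length, 3.07% held the MEF2 motif, 11.8% MCAT, 13.1% the TATA box and 65.2% an E-box. These are matches of letters and were not tested as binding sites.

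None of the 4 genes differed between MI and Sham beyond the spread between animals. At an adjusted p under 0.05 in the edgeR quasi-likelihood test, 0 of 4 members were higher and 0 lower, against 0% of all genes in each direction. At an unadjusted p under 0.05, 0 members were higher and 0 lower, against 3.67% of all genes higher and 4.47% lower, 8.14% together. DESeq2 and limma-voom called 0 members as well, where DESeq2 called 0.0856% of all genes higher and 0.0475% lower. In all 4 members the MI and Sham values overlapped. Over all genes the groups lay apart for 4.55%, too small a share for 4 members to stand out from. Ankrd1, Ankrd2 and Csrp3 had a wide spread between animals of the same group.

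The libraries held 7941402 to 24967251 counts, and 3 counts, taken as the floor of detection, corresponded to 0.120 to 0.378 CPM, the unit of counts scaled to library size. All levels below are CPM on library sizes scaled by the TMM method. They are not divided by transcript length, so levels are compared between animals and not between genes. Markers of skeletal muscle were present in every library, 7 of 10 listed genes having a row, with summed levels of 87872 to 113470 CPM in MI and 92131 to 112780 CPM in Sham. Ankrd1 and Csrp3 are also abundant in heart, so heart markers were read beside them. Among these markers, Myl7 had 0 counts in all 8 libraries, Nppa had 1 count in Sham replicate 5, and Nppb had 1 count each in MI replicate 2 and Sham replicate 5. Other heart markers were well above the floor. Sbk2, with the smallest p of the list, was at 25.7 to 65.5 CPM in MI and 29.7 to 114.4 CPM in Sham. Its log2 fold change was -0.73 ± 0.46 (edgeR adjusted p = 0.684). The 12 heart markers summed to 179.2 to 589 CPM in MI and 99.8 to 408.9 CPM in Sham. Among them Actc1, which immature skeletal muscle also expresses, was at 44.9 to 455 CPM in MI and 33.7 to 274 CPM in Sham. Myh6 was at 34.4 to 126.7 CPM in MI and 3.28 to 71.0 CPM in Sham. The part of these markers in the levels of Ankrd1 and Csrp3 was not tested. In whole muscle, fewer cells of a type and less RNA per cell cannot be told apart.

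MI replicate 1 stood at the low end for some of the stretch-responsive genes. It was the lowest of the 8 libraries for Ankrd1, Ankrd2 and Xirp2, and for Ankrd23. It was also lowest for the slow myosin gene Myh7, at 2283 CPM against 3202 to 4669 CPM in the other MI libraries. For Csrp3 it was not the lowest, at 12.02 CPM against 8.13 CPM in MI replicate 3 and 7.10 CPM in Sham replicate 5. Smpx, a gene of the Z-disc list read below, was highest in MI replicate 1, at 601 CPM against 334 to 548 CPM in the other 7 libraries. Sham replicate 6 stood at the high end for Xirp2, Ankrd23 and Csrp3. The same library had the highest summed level of immediate early genes, 802 CPM against 263.1 to 379 CPM in the other 7 libraries.

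**Figure D1:**
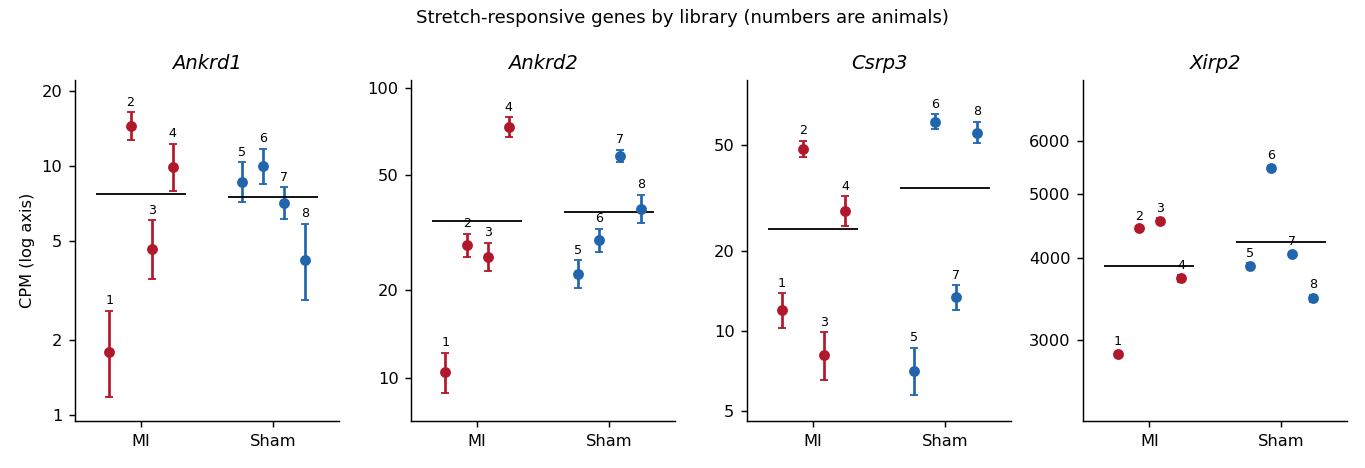
Level of each gene in each library in CPM on a log axis, with MI left of Sham; points carry the animal's replicate number, bars are exact 95% Poisson intervals for counting error, and lines are group means. The MI and Sham points overlap in every panel, and MI replicate 1 is the lowest point for Ankrd1, Ankrd2 and Xirp2.

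Ankrd1, the titin-binding ankyrin repeat protein best known from stressed heart muscle, was the least counted member. Its level was 1.80, 14.4, 4.66 and 9.91 CPM in MI replicates 1 to 4, and 8.64, 9.97, 7.10 and 4.18 CPM in Sham replicates 5 to 8. MI thus held both the lowest and the highest library, and all 4 Sham values lay between them. The lowest rested on 27 counts, with an exact 95% Poisson interval of 1.19 to 2.62 CPM that covers counting error only. The next library up, Sham replicate 8, was 2.32-fold higher, and these intervals did not overlap. The group means were 7.70 ± 5.60 CPM in MI and 7.47 ± 2.49 CPM in Sham (SD, n = 4 each). The log2 fold change was 0.02 ± 0.56 (SE), with a 95% interval of -1.28 to 1.33 and an edgeR adjusted p of 0.991. Without MI replicate 1 the log2 fold change was 0.36, and without MI replicate 2 it was -0.53.

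Ankrd2, the ankyrin repeat relative enriched in slow fibres and raised by stretch in rodent limb muscle, had 10.4, 28.6, 26.2 and 73.3 CPM in MI replicates 1 to 4. In Sham replicates 5 to 8 it had 22.8, 29.8, 58.4 and 38.3 CPM. Again the lowest and the highest library were both MI, replicates 1 and 4, 7.04-fold apart, while the Sham range was 2.56-fold. In the middle of the order, Sham replicate 6 and MI replicate 2 differed by 1.04-fold with overlapping counting intervals. Means were 34.6 ± 27.0 CPM in MI and 37.3 ± 15.4 CPM in Sham (SD, n = 4 each). The log2 fold change was -0.13 ± 0.57 with a 95% interval of -1.47 to 1.203 (edgeR adjusted p = 0.956). It was -0.79 without MI replicate 4, 0.17 without Sham replicate 7 and 0.17 without MI replicate 1.

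The balance of the ankyrin repeat pair did not differ between groups beyond its spread either. The log2 ratio of Ankrd1 to Ankrd2 within a library, which does not depend on library scaling, was -2.44, -0.98, -2.46 and -2.87 in MI replicates 1 to 4. In Sham replicates 5 to 8 it was -1.38, -1.57, -3.02 and -3.15. The highest ratio was in MI replicate 2, and the Sham values formed a higher and a lower pair. The mean was -2.19 ± 0.83 in MI and -2.28 ± 0.93 in Sham (SD, n = 4 each). The difference of 0.09 gave p = 0.943 in an exact two-sided permutation test over 70 arrangements, whose smallest possible p is 0.0286.

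Csrp3, the muscle LIM protein, had the widest spread of the members. Its level was 12.02, 48.5, 8.13 and 28.4 CPM in MI replicates 1 to 4, and 7.10, 61.3, 13.4 and 55.9 CPM in Sham replicates 5 to 8. In each group 2 animals had at most 13.4 CPM and 2 had at least 28.4 CPM, so high and low libraries were present in both groups alike. The gap in the middle of the order, between MI replicate 4 and Sham replicate 7, was 2.11-fold, and the whole range was 8.63-fold. Means were 24.3 ± 18.4 CPM in MI and 34.4 ± 28.1 CPM in Sham (SD, n = 4 each). The log2 fold change was -0.48 ± 0.85 with a 95% interval of -2.52 to 1.55 (edgeR adjusted p = 0.883). This interval is wide enough to hold a several-fold difference in either direction. The value was -1.11 without MI replicate 2 and -0.01 without Sham replicate 6.

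Xirp2, the large Xin repeat protein that crosslinks actin, was the most heavily counted and the steadiest member, with 28212 to 105107 counts per library. It had 2853, 4428, 4547 and 3719 CPM in MI replicates 1 to 4, and 3885, 5477, 4055 and 3471 CPM in Sham replicates 5 to 8. The lowest library was MI replicate 1 and the highest Sham replicate 6, and the other 6 lay between 3471 and 4547 CPM with the groups mixed. Means were 3887 ± 780.1 CPM in MI and 4222 ± 872 CPM in Sham (SD, n = 4 each). The log2 fold change was -0.12 ± 0.17 with a 95% interval of -0.51 to 0.27 (edgeR adjusted p = 0.858). This is the tightest interval of the members. The value was -0.00239 without MI replicate 1 and 0.04 without Sham replicate 6.

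The labels number the animals in 2 ranges, 253 to 256 and 275 to 288, without calling them a batch. The lower range held MI replicates 1 and 2 and Sham replicate 5 only, so it gives no spread for Sham. The difference of mean log2 CPM, MI minus Sham, was -0.72 in the lower and 0.03 in the higher range for Ankrd1, and -0.39 and 0.11 for Ankrd2. For Csrp3 it was 1.75 in the lower and -1.23 in the higher range, and for Xirp2 -0.13 and -0.05. Csrp3, Ankrd1 and Ankrd2 thus differed in sign between the ranges, which was not tested. With the range as a term, the edgeR log2 fold changes were -0.04 for Ankrd1, 0.07 for Ankrd2, -0.26 for Csrp3 and -0.08 for Xirp2.

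**Figure D2:**
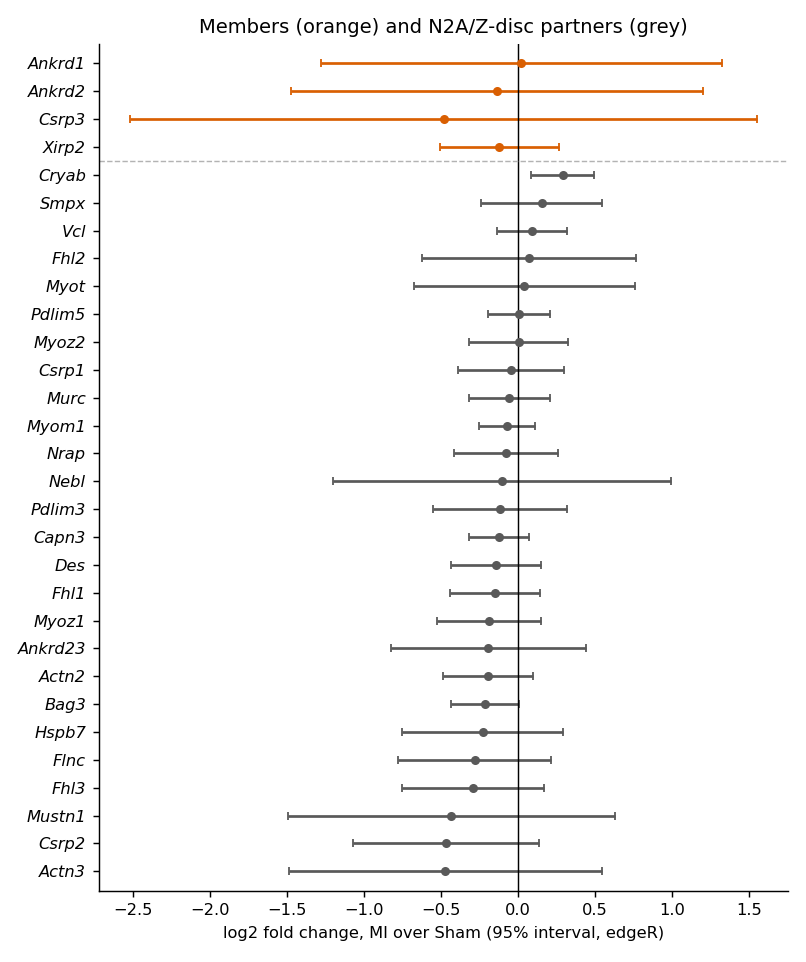
Log2 fold change of MI over Sham with 95% intervals from edgeR for the 4 members (orange) and the 26 tested N2A and Z-disc partners (grey). The intervals of all 4 members cross 0, and that of Csrp3, from -2.52 to 1.55, is the widest drawn.

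The spread between animals of the same group was measured as the SD of log2 CPM around the group means. It was 1.36 for Csrp3, 0.98 for Ankrd1 and 0.91 for Ankrd2, against a median of 0.204 over all tested genes. Only 35 of 10522 genes had a larger SD than Csrp3, 101 a larger one than Ankrd1 and 142 a larger one than Ankrd2. This places them at percentiles 99.7, 99.0 and 98.7 of all tested genes, a description with no test, by a measure chosen after the values were seen. Xirp2, with an SD of 0.30, stood at percentile 70.2, and Ankrd23, at 0.46, at percentile 87.3.

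The coefficient of biological variation, which edgeR estimates beyond counting error, was 79.1% for Csrp3, where the trend at its level was 16.0%, and 54.7% for Ankrd1, where the trend was 20.1%. For Ankrd2 it was 54.6% against a trend of 15.6%, and for Xirp2 18.5% against 15.3%. The spread of Ankrd1 and Ankrd2 was larger in MI than in Sham, with SDs of log2 CPM of 1.28 in MI and 0.54 in Sham for Ankrd1, and of 1.14 in MI and 0.57 in Sham for Ankrd2. For Csrp3 it was 1.16 in MI and 1.53 in Sham, and these differences in spread were not tested. Leaving out MI replicate 1 lowered the SD to 0.66 for Ankrd1 and 0.68 for Ankrd2. With any library left out, the lowest percentile was 95.45 for Ankrd1 and 96.03 for Ankrd2, both without MI replicate 1, and 99.38 for Csrp3, without Sham replicate 5.

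**Figure D3:**
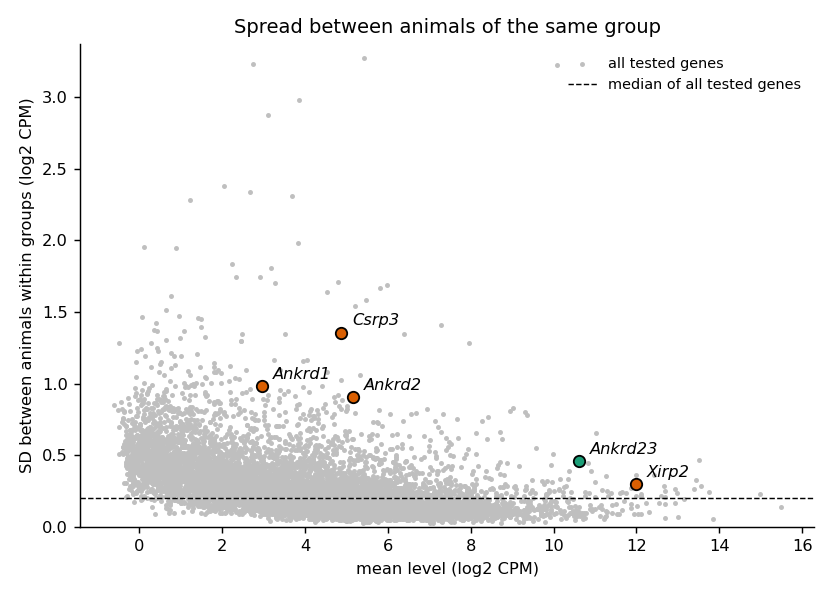
SD of log2 CPM between animals within groups against the mean level in log2 CPM for each tested gene; grey points are all tested genes, orange points the members, the green point Ankrd23, and the dashed line the median of 0.204. Csrp3, Ankrd1 and Ankrd2 lie above most genes of similar level, at 1.36, 0.98 and 0.91, while Xirp2 lies at 0.30.

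Whether the members vary together across animals was not settled by 8 libraries. The Pearson r of each of the 6 pairs of members was above 0, from 0.29 to 0.70. Over the 8 libraries, 14 relations of log2 CPM were computed, 6 between members and 8 with the mean levels of slow-fibre and immediate early genes, and none passed an adjusted p of 0.05. Ankrd1 and Xirp2 had a Pearson r of 0.70 (exact permutation p = 0.0569, adjusted 0.398) and a Spearman rho of 0.62 (exact p = 0.115, adjusted 0.567). Without the 2 libraries farthest from the Ankrd1 median, MI replicate 1 and Sham replicate 8, r was 0.03, so the relation rested on them. Ankrd1 and Ankrd2 had an r of 0.58 (exact permutation p = 0.132, adjusted 0.618) and a rho of 0.31 (exact p = 0.462, adjusted 0.808), and r was 0.06 without the same 2 libraries. Ankrd2 and Xirp2 had an r of 0.31 (exact permutation p = 0.465, adjusted 0.621) and a rho of 0.07 (exact p = 0.882, adjusted 1.0), and r was -0.27 without MI replicates 1 and 4. Over all 8 libraries Csrp3 had an r of 0.37 with Ankrd1 (exact permutation p = 0.374, adjusted 0.621), 0.32 with Ankrd2 (exact p = 0.451, adjusted 0.621) and 0.29 with Xirp2 (exact p = 0.488, adjusted 0.621). The rho values were 0.38, 0.55 and 0.19 (exact permutation p of 0.36, 0.171 and 0.665, adjusted 0.72, 0.567 and 0.93). The r of Csrp3 with Ankrd1 was higher, at 0.75 (exact permutation p = 0.0792), without MI replicate 1 and Sham replicate 8. It was 0.17 with Ankrd2 without MI replicates 1 and 4, and 0.15 with Xirp2 without Sham replicates 6 and 8. The Csrp3 values were divided, after they were seen, at their widest gap of 2.11-fold into a high and a low set of 4 libraries each. The next widest gap was 1.71-fold, between MI replicates 2 and 4. Each set was too small to compute a relation within it.

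No relation with fibre type passed. With the mean level of 10 slow-fibre markers, r was 0.05 for Ankrd1, -0.05 for Ankrd2, 0.14 for Csrp3 and -0.41 for Xirp2, the last with an exact permutation p of 0.323 (adjusted 0.621). With immediate early genes, which respond within minutes to activity and handling, Xirp2 had an r of 0.77 (exact permutation p = 0.0297, adjusted 0.398) and a rho of 0.74 (exact p = 0.0458, adjusted 0.567). Without MI replicate 1 and Sham replicate 6 this r was 0.23, so it too rested on those libraries. With the same genes, r was 0.30 for Ankrd1, 0.31 for Ankrd2 and 0.44 for Csrp3 (exact permutation p of 0.453, 0.445 and 0.287, each adjusted 0.621).

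The genes most like each member were named by the highest Pearson r of log2 CPM over the 8 libraries, among 10521 others. For Xirp2 these were Specc1 (r = 0.99), Htatsf1 (0.97) and Ankrd23 (0.97), with Nrap, an actin-binding gene of muscle ends and Z-discs, as the fourth at 0.97. Since the genes were chosen for r, it is a description with no test, and 40 genes had an r above 0.9 with Xirp2. Ankrd23 had 892, 1835, 1682 and 1432 CPM in MI replicates 1 to 4, and 1448, 2363, 1749 and 1113 CPM in Sham replicates 5 to 8. Nrap had 828, 1238, 1313 and 1015 CPM in MI replicates 1 to 4, and 1031, 1411, 1143 and 1051 CPM in Sham replicates 5 to 8. Both were lowest in MI replicate 1 and highest in Sham replicate 6, as Xirp2 was. Without MI replicate 1 the r of Xirp2 was 0.94 with Ankrd23 and 0.94 with Nrap.

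The patterns of the other members were shared with different genes. Ankrd1 was most like Sctr (r = 0.96), Gimap8 (0.96) and Kdr (0.95), the VEGF receptor of blood vessels. Kdr had 53.2, 81.3, 63.4 and 82.7 CPM in MI replicates 1 to 4, and 71.5, 70.7, 70.7 and 62.0 CPM in Sham replicates 5 to 8, a much narrower range than that of Ankrd1. The 9 endothelial markers with a row summed to 306.9 to 418.2 CPM in MI and 325.4 to 379.1 CPM in Sham, and their part in the level of Ankrd1 was not tested. Ankrd2 was most like Cap1 (0.96), Stmn4 (0.95) and Itgb7 (0.95), of which Stmn4 was at 0.668 to 1.153 CPM in MI and 0.805 to 0.984 CPM in Sham, on 8 to 25 counts per library.

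Csrp3 was most like Bex1 (r = 0.96), Pes1 (0.90) and Mir23b (0.89). These r values are over both the high and the low set of Csrp3 libraries. Bex1 had 12.6, 18.7, 12.2 and 17.9 CPM in MI replicates 1 to 4, and 12.5, 17.8, 13.8 and 18.6 CPM in Sham replicates 5 to 8. The 4 libraries high in Csrp3 were the 4 highest in Bex1. Since Bex1 was chosen for its r with Csrp3, this shared order is a description with no test. Pes1 ranged from 17.4 to 18.5 CPM in MI and from 17.3 to 19.2 CPM in Sham, so its likeness concerns differences of a few percent.

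**Figure D4:**
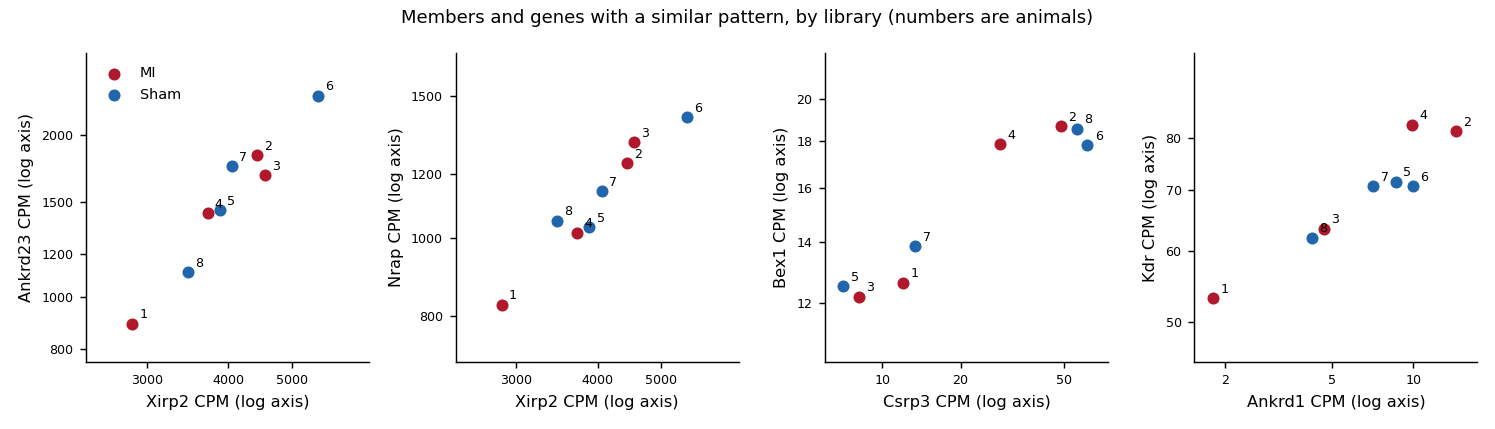
Level of a member against that of a gene with a similar pattern, both in CPM on log axes; each point is a library with its replicate number, MI in red and Sham in blue. Xirp2, Ankrd23 and Nrap are all lowest in MI replicate 1 and highest in Sham replicate 6, Kdr spans a narrower range than Ankrd1, and Csrp3 and Bex1 form a high and a low set that each hold 2 MI and 2 Sham animals. The genes set against the members were picked for a high r with them, so their likeness is a description with no test.

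Ankrd23, the titin-binding ankyrin repeat gene also called DARP, completes the family of Ankrd1 and Ankrd2. It averaged 1460.1 ± 414 CPM in MI and 1668 ± 531 CPM in Sham (SD, n = 4 each), and the groups overlapped. In edgeR its log2 fold change was -0.19 ± 0.28 with an adjusted p of 0.857. Without Sham replicate 6 the value was 0.03. Its r with Ankrd1 was 0.78 and with Ankrd2 0.41, and without MI replicate 1 these were 0.54 and -0.22.

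Among partners of the members at titin N2A and the Z-disc, 26 of 34 listed symbols were tested and 0 passed in edgeR, DESeq2 or limma-voom. Of these, 7 had a log2 fold change above 0 and 19 below, with a median of -0.12, where the median of all genes was -0.0070 and 48.7% of them lay above 0. With each library left out, the list's median ran from -0.18 to -0.06, and was nearest 0 without Sham replicate 6. The smallest p belonged to Cryab, a small heat shock protein that protects desmin and titin, at 3521 CPM in MI and 2877 CPM in Sham (log2 fold change 0.29 ± 0.09, edgeR adjusted p = 0.601). Its MI values all lay above the Sham values, as they did for 2.09% of all genes. Bag3, its partner in the turnover of stretched Z-disc proteins, had a log2 fold change of -0.21 ± 0.10, and Csrp2, a relative of Csrp3, -0.46 ± 0.27 (edgeR adjusted p = 0.616 and 0.658). Mustn1, a small gene induced by muscle load, was at 96.4 CPM in MI replicate 1 and at 274.0 to 608 CPM in the other 7 libraries.

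The signalling lists for mechanical load held no call in edgeR. Of the Hippo pathway list, for which Ankrd1 is a known target in heart and other cells, 20 of 25 symbols were tested. Of these, 11 were above 0, with a median of 0.02, or -0.02 without MI replicate 1. Yap1, the co-activator itself, had a log2 fold change of 0.43 ± 0.21, Mob1a -0.28 ± 0.15 and Vgll2 0.27 ± 0.15 (edgeR adjusted p of 0.626, 0.639 and 0.641). The SRF list of actin-regulated genes had 11 of 17 symbols tested, 4 above 0 and a median of -0.07. In it the smooth muscle gene Cnn1 was at -0.64 ± 0.39, Flna at -0.21 ± 0.13 and Tpm4 at -0.16 ± 0.12. Without Sham replicate 7 the median was 0.02 and Cnn1 was at -0.16. Flna was at -0.14 without Sham replicate 8, and Tpm4 at -0.09 without MI replicate 1.

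Growth and load signalling had 19 of 22 genes tested, 4 above 0 and 15 below, and a median of -0.07. Trim63, the ubiquitin ligase MuRF1, which binds titin at the M-band, was at 229.3 to 248.9 CPM in MI and 318.7 to 359 CPM in Sham, with no overlap, as in 2.46% of all genes. Its log2 fold change of -0.46 ± 0.07 did not pass in edgeR (adjusted p = 0.286) and was the 1 gene of the list that DESeq2 called. Igf1, the muscle growth factor, had a log2 fold change of 0.46 ± 0.18 and the transcription factor Mef2d -0.39 ± 0.17 (both edgeR adjusted p = 0.601).

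**Figure D5:**
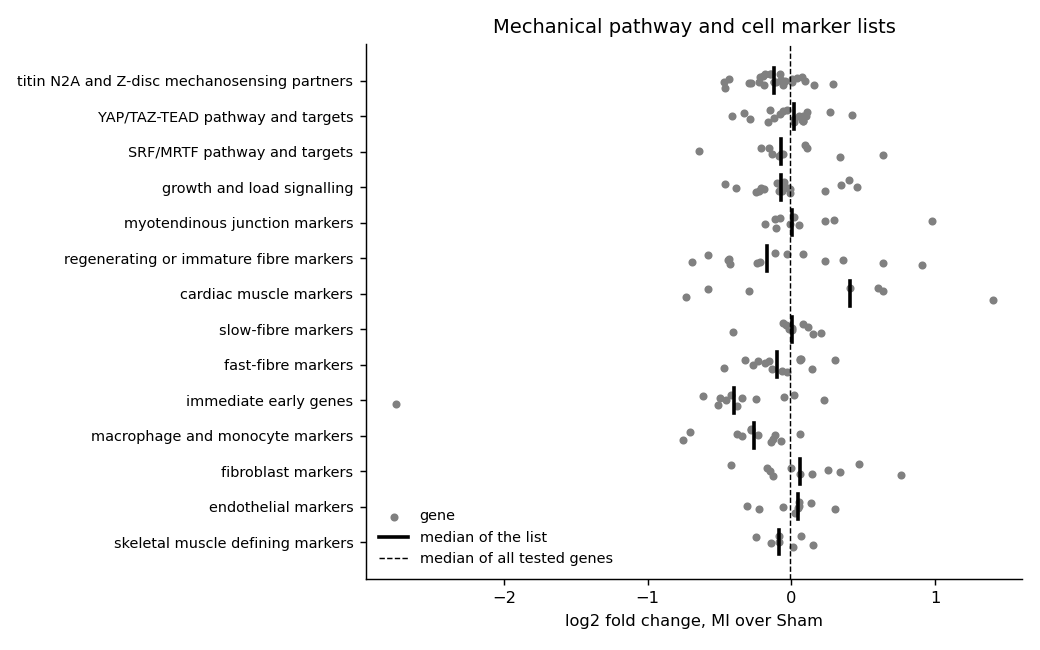
Log2 fold change of MI over Sham for each tested gene of the mechanical pathway and cell marker lists; grey points are genes, thick bars list medians, and the dashed line the median of all tested genes. The N2A and Z-disc partners have a median of -0.12, and the far left point is Atf3 among immediate early genes.

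Markers of other fibre states and cell types were read for the same libraries. Myotendinous junction markers, where Xin proteins are enriched, had 10 of 12 genes tested, 5 above 0, and a median of 0.0035, which was -0.25 without MI replicate 4 and 0.16 without Sham replicate 5, with summed levels of 1005 to 1541 CPM in MI and 1268 to 1609 CPM in Sham. Immature and regenerating fibre markers, which mark a state in which Csrp3 and Ankrd1 are known to be high, had 5 of 14 tested genes above 0 and a median of -0.17, or -0.06 without MI replicate 4. They summed to 719 to 1389 CPM in MI and 938 to 1587 CPM in Sham. The fetal acetylcholine receptor gene Chrng had a log2 fold change of 0.91 ± 0.34, Runx1 -0.69 ± 0.30 and Chrna1 0.36 ± 0.16 (edgeR adjusted p of 0.601, 0.603 and 0.608). Chrng rested on 9 to 29 counts per library, and Runx1 averaged only 0.59 CPM in MI and 0.94 CPM in Sham. Slow-fibre markers had a median of 0.0044 over 10 genes and fast-fibre markers -0.10 over 14. The slow-fibre median ran from -0.05 without Sham replicate 7 to 0.07 without Sham replicate 8. The fast-fibre median was -0.20 without MI replicate 1 and 0.07 without Sham replicate 6. Myh7 was at 3514 ± 1016 CPM in MI and 4645 ± 818 CPM in Sham (log2 fold change -0.40 ± 0.21, edgeR adjusted p = 0.639; SD, n = 4 each), and its log2 fold change was -0.25 without MI replicate 1.

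Immediate early genes had 2 of 12 tested members above 0 and a median of -0.40, or -0.20 without Sham replicate 6. Atf3, a stress-induced factor of this list, was at 266.7 CPM in Sham replicate 6 and at 7.37 to 16.4 CPM in the other 7 libraries, and Fos at 13.8 to 36.5 CPM in MI and 12.5 to 49.0 CPM in Sham. Macrophage markers had 1 of 12 genes above 0 with a median of -0.26, or 0.08 without Sham replicate 7. Fibroblast markers had 6 of 11 tested genes above 0 and 5 below, with a median of 0.06, or -0.23 without MI replicate 4. Col1a2, also listed, had 0 counts in every library, as Myl7 did, and whether the annotation accounts for such rows was not tested. Of the 11, 3, all higher, had an edgeR unadjusted p under 0.05, as did 3.67% of all genes in that direction. These were the matrix genes Lum at 0.76 ± 0.26 and Dcn at 0.34 ± 0.15 and the protease gene Fap at 0.47 ± 0.16, each with an edgeR adjusted p of 0.601. Without MI replicate 4, Lum was at 0.52, Dcn at 0.20 and Fap at 0.39. Other lists also held genes at an edgeR unadjusted p under 0.05. There were 2 higher and 1 lower of 14 immature fibre markers, and 1 higher and 2 lower of 19 growth and load genes. Immediate early genes had 2 lower of 12, and macrophage markers 1 lower of 12. Endothelial markers had 1 higher of 9, and the N2A and Z-disc partners 1 higher of 26. Endothelial markers had a median of 0.04 over 9 genes, or -0.11 without MI replicate 2. None of these marker lists held a gene that passed in edgeR, DESeq2 or limma-voom, and their part in the levels of the members was not tested.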

How the data were processed

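The members and gene lists were chosen with earlier results of these data known. RNA was isolated from frozen diaphragm with TRI Reagent, and libraries were made with SMARTer ultra-low-input and KAPA Hyper kits, per the labels' protocols. The authors deposited 1 table of unnormalised read counts, with genes named by symbol. The submitters' processing notes name build rn5 and, with no order, Cufflinks, TopHat, TopHat2, STAR 2.5.0a and bcl2fastq. Which program counted reads, with which annotation and strand setting, is not given in the sources used here, so reads of overlapping genes cannot be told apart. Groups came from the labels, and nothing pairs the animals. Pairs of libraries of a group differed by more than sampling noise (chi-square over its degrees of freedom, 12.1 to 44.3), and each counted as 1 replicate.

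Every gene was tested with edgeR 4.0.16 in R 4.3.3 (TMM, filterByExpr, robust quasi-likelihood F test, two-sided, Benjamini-Hochberg over 10522 genes). Log2 CPM used a prior count of 2. Alternatives were RLE factors, library totals, 2 other filters, DESeq2 1.42.0, limma-voom 3.58.1, no robust estimation, a term for the animal number range and leaving out single libraries. The edgeR procedure was tested on simulated data. Named genes were the members, Trim63, Myh7, Ankrd23 and Fos, the 3 smallest p of each list, and the 3 genes most like each member. For some marker lists fewer are named. Genes named beyond this rule (Nrap, Mustn1, Smpx, Actc1, Myl7, Nppa, Nppb and Col1a2) were chosen after their values were seen. P-values of MI against Sham set the group difference against the spread between these animals, which the labels number separately. Lists are described by counts and medians. Some lists hold an older and a newer symbol of the same gene as separate entries. Of the members, 2 matched a RefSeq promoter entry of GRCr8.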

Additional observations from a re-analysis of the deposited data

Results flagged for a closer look

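No member met the criterion here. In a check of 94 groups of 4 libraries (47 named genes), in which chance flags about 1 in 20 groups, 4 held a library whose gap to its neighbour exceeded Dixon's 95% critical share of the group's range of log2 CPM. Sham replicate 6 was the highest Sham library for Trim63 (0.885, at 359 CPM), for the Z-disc gene Myoz1 (0.887, at 1231 CPM) and for Atf3 (0.874, at 266.7 CPM). MI replicate 1 was the lowest MI library for the endothelial gene Egfl7 (0.870, at 17.9 CPM). Sham replicate 6 and MI replicate 1 were also the highest and lowest libraries for Xirp2, whose own groups were not flagged. With flags near the share that chance gives, nothing is read from this match.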

How the results depend on the processing

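No paired analysis was possible because the groups share no replicate number. The members passed the threshold under none of the 16 alternatives to the edgeR test. Over all genes, DESeq2 called 9 higher and 5 lower, and leaving out a library gave 0 to 1 higher (1 without MI replicate 1 and 1 without MI replicate 3) and 0 lower. The log2 fold change of Ankrd1 turned to -0.37 with limma-voom and -0.036 with a term for the animal number range, and that of Ankrd2 to 0.069 with that term. With each library left out, it ran from -0.53 to 0.36 for Ankrd1, -0.79 to 0.17 for Ankrd2, -1.11 to -0.01 for Csrp3 and -0.20 to 0.037 for Xirp2. That of Ankrd23 ran from -0.34 to 0.030, Fos from -0.74 to 0.046 and Tnmd from -0.65 to 1.498, with Tnmd at -0.59 with limma-voom. The log2 ratio difference ran from -0.31 to 0.39. The medians of growth and load signalling ran from -0.12 to -0.0050 and of heart markers from -0.29 to 0.58. Relations ran from r = -0.42 to 0.48 (Ankrd2 with Xirp2), -0.034 to 0.49 (Csrp3 with Xirp2), -0.018 to 0.44 (Ankrd1 with immediate early genes), and, with slow-fibre genes, -0.10 to 0.25 (Ankrd1), -0.20 to 0.23 (Ankrd2, 0.085 with library totals alone) and -0.13 to 0.50 (Csrp3). The cause of these changes was not tested. With 4 animals a group, the intervals of Ankrd1, Ankrd2 and Csrp3 are wider than a 2-fold change in each direction.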
